A study of Mus musculus with 22 samples.

Results

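Accessible chromatin of later male germ cells, spermatocytes and round spermatids taken as 1 group of 5 libraries, was compared with that of KIT-negative undifferentiated spermatogonia, also 5 libraries. These are 10 of the 22 mouse libraries of a study of acute TERT loss in spermatogonial stem cells, and the 10 were chosen by genotype, marker entry and library name. Accessibility was measured by ATAC-seq, in which Tn5 transposase cuts open chromatin and tags it for sequencing, on cells purified by FACS. All 10 libraries are titled TERT-heterozygous and came from C57BL/6 mice aged 8 to 12 weeks. The later germ cells had the genotype TertTdtomato/+, with no time point and no marker in their labels, and all 5 library names carry the single source number Het1. The spermatogonia had the genotype TertCreER/+:Rosalsl-Tdtomato/+ and were collected 7 days after tamoxifen, as 3 libraries sorted MCAM-high and 2 sorted MCAM-medium, all KIT-negative, whose names carry the numbers Ctrl1, Ctrl2 and Ctrl3. MCAM is a surface adhesion molecule, and KIT is the receptor that marks differentiating spermatogonia. For later libraries 1, 2, 4 and 5 the title and the library name disagree on spermatocyte or round spermatid, so the cell types were not separated. Cell stage, genotype, tamoxifen time point and library source change together between the groups and cannot be told apart. The labels do not tie libraries of a group to different animals, so each p-value rests on a spread between libraries that may be technical.

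Undifferentiated spermatogonia hold the stem cells of the testis, which depend on GDNF signalling through GFRA1 and RET. Spermatocytes pair and recombine their chromosomes in meiosis, while the unpaired X and Y are silenced as a sex body. Round spermatids then switch on genes for the acrosome, the flagellum and the protamines that replace histones, many of them through the CREM transcription factor, which binds cyclic AMP response elements near their start sites.

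The 100 bases before the start site of genes on which the results turn are given first, from RefSeq on GRCm38.p6, 5′ to 3′ on the gene's strand, with any cyclic AMP response element-like run of TGANNTCA in capitals. Those of Prm1, at chr16:10796824-10796923 (minus strand), Tnp1, at chr1:73015900-73015999 (minus strand), and Gapdhs, at chr7:30743682-30743781 (minus strand), belong to genes of nuclear condensation and sperm glycolysis. Those of Gtsf2, at chr15:103448460-103448559 (minus strand), and Pln, at chr10:53337586-53337685 (plus strand), belong to peaks with no count in any KIT-negative library. Acrv1, an acrosomal vesicle gene at chr9:36693120-36693219 (plus strand), also rose and holds no such run. The promoters of Dusp6, at chr10:99263131-99263230 (plus strand), and Hdac6, at chrX:7947890-7947989 (minus strand), are shown from the side that fell.
Prm1: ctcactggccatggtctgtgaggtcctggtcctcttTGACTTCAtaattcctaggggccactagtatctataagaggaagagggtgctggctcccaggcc
Tnp1: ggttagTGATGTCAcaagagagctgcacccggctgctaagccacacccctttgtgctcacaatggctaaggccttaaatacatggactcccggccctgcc
Gapdhs: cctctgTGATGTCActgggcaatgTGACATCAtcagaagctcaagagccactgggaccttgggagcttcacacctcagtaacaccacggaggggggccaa
Gtsf2: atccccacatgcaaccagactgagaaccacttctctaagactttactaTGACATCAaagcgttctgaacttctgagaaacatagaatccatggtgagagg
Pln: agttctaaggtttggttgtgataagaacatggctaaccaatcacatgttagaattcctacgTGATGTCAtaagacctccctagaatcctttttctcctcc
Acrv1: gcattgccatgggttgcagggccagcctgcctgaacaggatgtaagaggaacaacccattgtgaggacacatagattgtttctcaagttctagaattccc
Dusp6: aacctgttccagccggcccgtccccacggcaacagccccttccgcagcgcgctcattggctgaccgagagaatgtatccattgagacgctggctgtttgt
Hdac6: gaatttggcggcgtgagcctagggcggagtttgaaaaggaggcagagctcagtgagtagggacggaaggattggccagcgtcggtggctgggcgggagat

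Total counts in peaks were 2028283 ± 765987 in later germ cells and 2080918 ± 414137 in KIT-negative spermatogonia (SD, n = 5 each), with ranges of 1433230 to 3358377 in later germ cells and of 1614815 to 2657910 in KIT-negative spermatogonia. Spearman correlations between libraries over tested peaks were 0.853 to 0.919 within the later group and 0.883 to 0.923 within the KIT-negative group. Between groups they were 0.169 to 0.238, and the first principal component, which separated the groups, held 82.7% of the variance. The share of nonzero counts that were even was 49.3 to 49.9% in later libraries and 51.4 to 61.9% in KIT-negative ones, and its part in the results below was not tested. The tables give peaks, not transcripts, and every level below is CPM, the count divided by library size after TMM scaling, given for later libraries 1 to 5 and then MCAM-high libraries 1 to 3 and MCAM-medium libraries 1 and 2. Where all libraries of a group have 0 counts, 3 counts over the group allow up to 0.324 CPM in KIT-negative spermatogonia and 0.363 CPM in later germ cells. Such limits cover counting error only. Peaks of Piwil1, Prm1 and Acr had counts in every later library, and those of Nanos2, Zbtb16 and Gfra1 in every KIT-negative library, while the spermatogonial markers Pax7 and Neurog3 had none at their start or ends.

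Of 96049 peaks, 47354 had enough counts to be tested, and most of these differed between the groups. In later germ cells 18090 peaks were higher (38.2% of those tested) and 16136 lower (34.1%) at an edgeR quasi-likelihood adjusted p under 0.05, 72.3% in all. The changes were lopsided in size. By more than 3 on the log2 scale, 7937 peaks were higher and 1275 lower, and 435 higher peaks had 0 counts in all KIT-negative libraries while 2 lower peaks had 0 counts in all later libraries. Of all peaks, 89197 to 93262 had a count in a later library and 81144 to 85187 in a KIT-negative one. The part of this difference in the lopsided sizes was not tested. Sizes past 3 were counted with TMM scaling only. Every later library was above every KIT-negative library at 15268 peaks (32.2% of those tested) and below at 11523 (24.3%). Peaks within 1 kb of a gene start (of either end where the reference gives no strand), in gene bodies and between genes were higher in 39.9%, 38.2% and 36.0% of cases and lower in 33.0%, 35.2% and 34.3%. The share of all counts at gene starts or ends was 54.2 ± 1.81% in later germ cells and 55.3 ± 1.55% in KIT-negative spermatogonia (SD, n = 5 each), a difference of -1.07 percentage points that did not pass an exact permutation test (two-sided p = 0.365, adjusted over 4 shares 0.365). The 1% of peaks with most counts took 8.95 ± 0.27% of counts in later germ cells and 11.3 ± 0.36% in KIT-negative spermatogonia, with no overlap (two-sided exact permutation p = 0.00794, the smallest that 5 against 5 allows, adjusted 0.0106).

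**Figure D1:**
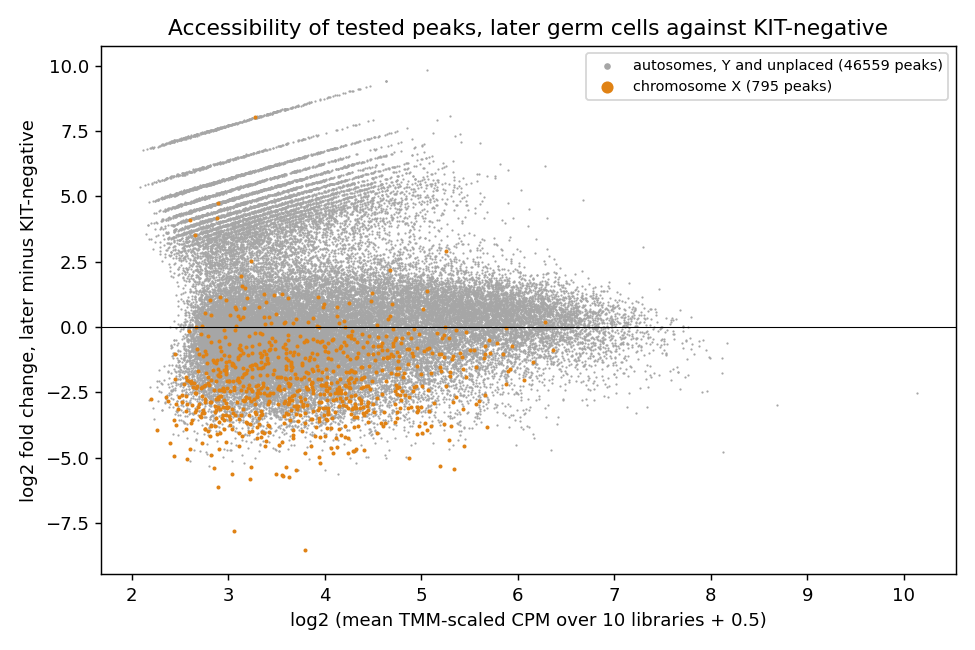
Each point is 1 tested peak, with its log2 mean level on the horizontal axis and its log2 fold change, later germ cells minus KIT-negative spermatogonia, on the vertical axis. Orange points are the 795 peaks on X, most of which lie below 0; the parallel stripes at the top are peaks with 0 or few counts in KIT-negative libraries.

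Genes were described through 1 peak each, the peak with most counts at the gene start, or at either annotated end for the 7590 of 34615 genes whose strand the reference does not give, among them Odf1, Acr, Catsper1, Oaz3, Zbtb16, Sall4, Ret, Fgfr1, Dusp4, Foxj1 and Terc. Of 18911 such peaks tested, 39.8% were higher and 33.6% lower, with a median log2 fold change of 0.10, against 0.02 over all tested peaks. These shares are the background for every list count below. Other scalings moved the median of all tested peaks to -0.11 with total counts and 0.22 with DESeq2, and changes below are best read against that shift. A peak that passed the count filter through 1 group alone was bound to differ, so the counts below describe the members tested. In all 5985 genes share their peak with another gene, and of the genes named below Acr, Tnp1, Acrv1, Spaca3, Crem, Ldhc, Ncl, Cdk6, Nme1, Etv4, Mcam, Ccdc192, Sox3, Sall4, Gfra1, Fgfr1, Sox8, Wt1, Terb2, Hdac6, Enox2, Zfp449, Pdha1, Utp14a and Cetn2 share theirs with a neighbouring or antisense gene.

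Genes of the acrosome, of nuclear condensation and of the flagellum had the highest median change of the 14 lists. Of the 41 genes listed, 36 had a tested peak, of which 30 were higher in later germ cells and the other 6 did not pass the threshold, with a median log2 fold change of 1.69. In 27 of the 36 every later library was above every KIT-negative library, against 32.2% of all tested peaks. Odf1, which encodes a protein of the outer dense fibres of the tail, had 55.5, 55.0, 64.2, 76.1 and 63.9 CPM in later germ cells, against 0, 0, 0, 2.05 and 0 CPM in KIT-negative spermatogonia at chr15:38219100-38219780 (log2 fold change 6.96 ± 0.40, edgeR adjusted p = 1.49e-22; ± SE here and below). The peak was near 0 in all KIT-negative libraries, and MCAM-medium library 1 held all of its reads there.

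Acr, which encodes the acrosomal protease acrosin, had 49.2, 61.8, 59.9, 55.2 and 53.4 CPM in later germ cells, against 0, 2.0, 0.628, 0.514 and 0 CPM in KIT-negative spermatogonia (log2 fold change 6.28 ± 0.38, edgeR adjusted p = 9.12e-22). Prm1, which encodes a protamine, had 17.4, 15.1, 31.2, 28.4 and 26.1 CPM in later germ cells, against 0, 0.999, 0, 0.514 and 1.42 CPM in KIT-negative spermatogonia at chr16:10796759-10797070 (log2 fold change 5.25 ± 0.50, edgeR adjusted p = 5.11e-14). The groups did not overlap at either, and later libraries 1 and 2, titled spermatocyte but named round spermatid, had the lowest Prm1 values of the later group. Prm2, a protamine gene, shares with Prm3 a peak that lies on the Prm3 start, 861 bp from the Prm2 start. That peak had 46.2, 55.0, 85.9, 67.9 and 69.5 CPM in later germ cells, against 0.868, 0, 0.628, 7.71 and 1.42 CPM in KIT-negative spermatogonia (log2 fold change 4.85 ± 0.34, edgeR adjusted p = 8.99e-19). One KIT-negative library, MCAM-medium 1, stood above the other 4 there and still far below every later library.

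Gapdhs, the glycolytic enzyme of the sperm tail, averaged 62.9 ± 10.7 CPM in later germ cells and 1.19 ± 1.09 CPM in KIT-negative spermatogonia (SD, n = 5 each; log2 fold change 5.65 ± 0.34, edgeR adjusted p = 9.56e-22). Hils1, a linker histone of spermatids, averaged 52.7 ± 9.69 CPM in later germ cells and 0.782 ± 0.798 CPM in KIT-negative spermatogonia (log2 fold change 5.98 ± 0.38, edgeR adjusted p = 9.94e-21). Catsper1, a subunit of the sperm calcium channel, had a log2 fold change of 6.46, and Oaz3, the antizyme of spermatids, of 5.99. These genes lay at the upper end of the list together with Spaca3 (5.49), Akap3 (5.14), Acrv1 (4.95), Ropn1 (4.54) and Spaca4 (4.46). Tnp1, a transition protein gene, averaged 34.2 ± 10.8 CPM in later germ cells and 4.07 ± 1.59 CPM in KIT-negative spermatogonia (log2 fold change 3.05 ± 0.32, edgeR adjusted p = 1.22e-12).

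Other members that were higher had clear counts in spermatogonia. Odf2, of the outer dense fibres and centrioles, averaged 188 ± 25.4 CPM in later germ cells and 77.9 ± 9.39 CPM in KIT-negative spermatogonia (log2 fold change 1.27 ± 0.13, edgeR adjusted p = 2.06e-13), and Spag16, of the central apparatus, 92.7 ± 7.39 CPM in later germ cells and 20.3 ± 5.45 CPM in KIT-negative spermatogonia (log2 fold change 2.20 ± 0.17, edgeR adjusted p = 4.51e-17). The 6 that did not pass were Catsper2 (-0.14), Dpy19l2 (-0.04), Zpbp2 (-0.03), Meig1 (0.06), Tssk6 (0.38) and Spag6l (0.40), all with overlapping groups. Catsper2 shares its peak with Pdia3 and Tssk6 with Ndufa13, so their values cannot be given to 1 gene. No peak lay within 1 kb of the start of Tnp2, Akap4, Dnah17, Spem1 or Tssk2, or of either end where the strand is not given; peaks in gene bodies were not searched for list members.

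**Figure D2:**
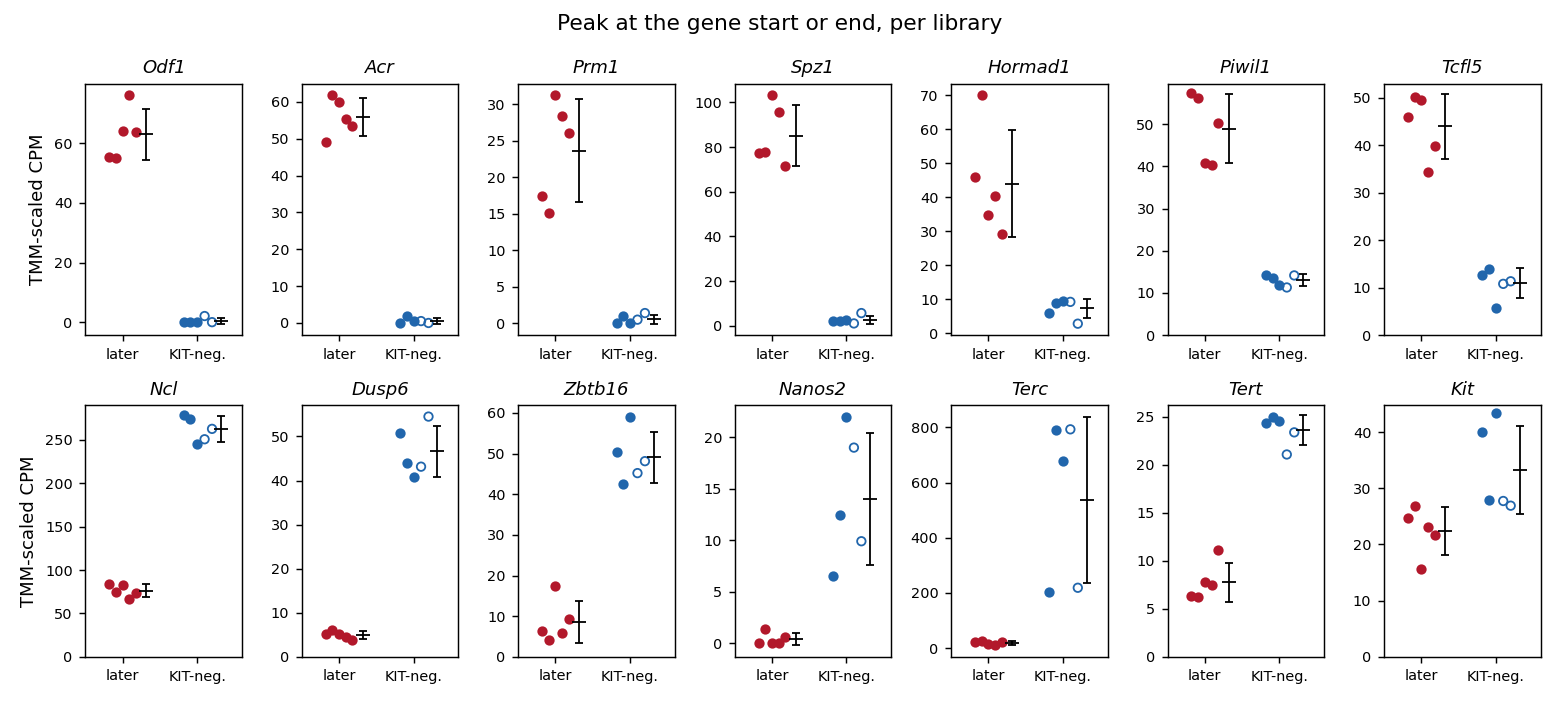
Each panel shows the peak of 1 gene, with a point per library in TMM-scaled CPM, later germ cells in red on the left and KIT-negative spermatogonia in blue on the right (filled for MCAM-high, open for MCAM-medium), and the mean ± SD in black. Odf1, Acr and Prm1 sit near 0 in all KIT-negative libraries, while Terc ranges from 204 to 793 CPM there.

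Of the transcriptional regulators of spermatids 15 of 19 tested members were higher, 2 lower and 2 not past the threshold, with a median log2 fold change of 0.93. Spz1, a testis helix-loop-helix protein, had 77.3, 77.6, 103, 95.5 and 71.4 CPM in later germ cells, against 2.17, 2.0, 2.51, 1.03 and 5.66 CPM in KIT-negative spermatogonia (log2 fold change 5.04 ± 0.26, edgeR adjusted p = 3.39e-24). Fhl5, which encodes the CREM coactivator ACT, had 9.62, 8.24, 11.3, 17.9 and 13.7 CPM in later germ cells, against 0.434, 0, 2.51, 0 and 0 CPM in KIT-negative spermatogonia (log2 fold change 4.29 ± 0.56, edgeR adjusted p = 1.07e-09). Both peaks were close to 0 in KIT-negative libraries, but with loess offsets in place of TMM the Fhl5 value was 1.25 and its edgeR adjusted p 0.106.

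Chd5, a remodeller needed for histone replacement, averaged 25.7 ± 5.74 CPM in later germ cells and 2.31 ± 1.81 CPM in KIT-negative spermatogonia (log2 fold change 3.52 ± 0.40, edgeR adjusted p = 1.37e-11). Foxj1, a regulator of motile cilia, averaged 71.9 ± 15.2 CPM in later germ cells and 16.8 ± 3.56 CPM in KIT-negative spermatogonia (log2 fold change 2.12 ± 0.19, edgeR adjusted p = 1.31e-14), and Sox30, of the SOX family, 121 ± 15.6 CPM in later germ cells and 32.1 ± 12.4 CPM in KIT-negative spermatogonia (log2 fold change 1.91 ± 0.17, edgeR adjusted p = 4.24e-15). Rfx1, Rfx2 and Rfx3, whose products bind cilia genes, were higher by 0.72, 0.98 and 1.26 on the log2 scale. Crem itself did not pass, with overlapping groups, at 81.6 ± 16.2 CPM in later germ cells and 77.9 ± 5.19 CPM in KIT-negative spermatogonia (log2 fold change 0.07 ± 0.14, edgeR adjusted p = 0.661). The 2 lower members were Bbx (-1.69) and the X-linked Taf7l (-1.05), a testis paralogue of a TFIID subunit.

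Peaks of the meiotic lists had counts in all spermatogonial libraries too. Of 16 tested members of the synaptonemal complex and meiotic axis 12 were higher and 2 lower, with a median of 1.37. Hormad1, an axis protein, had 45.9, 70.1, 34.7, 40.3 and 29.2 CPM in later germ cells, against 6.08, 8.99, 9.43, 9.25 and 2.83 CPM in KIT-negative spermatogonia (log2 fold change 2.56 ± 0.27, edgeR adjusted p = 2.5e-12). The meiotic cohesin gene Smc1b, whose peak is shared with Ribc2, averaged 39.8 ± 5.27 CPM in later germ cells and 8.25 ± 3.11 CPM in KIT-negative spermatogonia (log2 fold change 2.29 ± 0.26, edgeR adjusted p = 2.21e-11). Sycp1 and Sycp3, the transverse filament and the lateral element, were higher by 1.48 and 1.40 on the log2 scale, with no overlap between groups. Meikin (2.26), which protects centromeric cohesion, and Meioc (1.56), needed for meiotic prophase, were also higher.

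The members that fell were Stag3, another meiotic cohesin gene, at 56.1 ± 9.07 CPM in later germ cells and 135 ± 17.6 CPM in KIT-negative spermatogonia (log2 fold change -1.26 ± 0.14, edgeR adjusted p = 6.36e-12), and the axis gene Hormad2 (-0.80). The Stag3 peak is shared with Gpc2. In meiotic recombination 12 of 21 tested members were higher, 1 was lower and 8 did not pass, with a median of 0.38. Over all gene peaks 39.8% were higher and 33.6% lower. Psmc3ip, a partner of the recombinases, averaged 59.0 ± 10.7 CPM in later germ cells and 20.7 ± 4.80 CPM in KIT-negative spermatogonia (log2 fold change 1.5 ± 0.20, edgeR adjusted p = 8.08e-10), and the meiotic recombinase gene Dmc1 53.2 ± 12.3 CPM in later germ cells and 20.6 ± 5.19 CPM in KIT-negative spermatogonia (log2 fold change 1.38 ± 0.21, edgeR adjusted p = 2.75e-08). Tex15 (1.26) and Hsf2bp (0.96), both needed in meiotic recombination, were higher, but Hsf2bp did not pass against the MCAM-high libraries alone (edgeR adjusted p = 0.0843) or with the later libraries named spermatocyte alone (edgeR adjusted p = 0.0816). Prdm9, whose product marks recombination hotspots, had overlapping groups at 57.3 ± 7.14 CPM in later germ cells and 56.6 ± 6.77 CPM in KIT-negative spermatogonia (log2 fold change 0.02 ± 0.16, edgeR adjusted p = 0.928). The peaks of Spo11 and Mei1 did not pass the count filter.

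Regulators and enzymes of spermatocytes gave 19 of 25 tested members higher, 2 lower and 4 not past the threshold, with a median of 1.11. Tcfl5, a helix-loop-helix regulator, had 45.9, 50.1, 49.5, 34.3 and 39.7 CPM in later germ cells, against 12.6, 14.0, 5.66, 10.8 and 11.3 CPM in KIT-negative spermatogonia (log2 fold change 1.99 ± 0.24, edgeR adjusted p = 8.62e-11). Piwil1, the PIWI protein of pachytene piRNAs, had 57.3, 56.3, 40.8, 40.3 and 50.3 CPM in later germ cells, against 14.3, 13.5, 11.9, 11.3 and 14.2 CPM in KIT-negative spermatogonia (log2 fold change 1.91 ± 0.22, edgeR adjusted p = 1.46e-11). Neither overlapped between groups, and both peaks had counts in every KIT-negative library. The germ cell enzyme genes Pdha2 and Ldhc were higher by 1.66 and 1.65, while Mybl1, a regulator of pachytene genes, did not pass (log2 fold change 0.18 ± 0.14, edgeR adjusted p = 0.244).

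**Figure D3:**
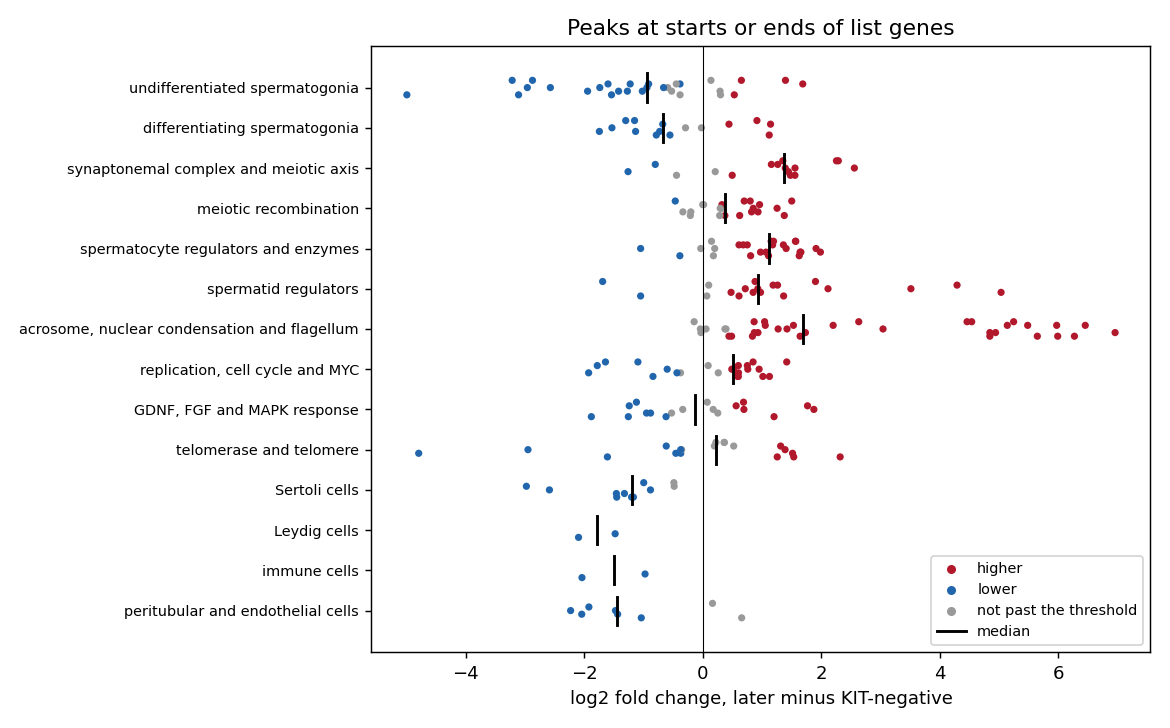
Each point is the peak of 1 list member, placed by its log2 fold change, later germ cells minus KIT-negative spermatogonia, in red where higher, blue where lower and grey where it did not pass the threshold, with the list median as a black bar. The acrosome, condensation and flagellum list reaches 6.96 (Odf1) and the undifferentiated list -4.99 (Nanos2).

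Genes of undifferentiated spermatogonia were mostly lower in later germ cells. Of 33 genes listed 29 had a tested peak, of which 18 were lower, 4 higher and 7 not past the threshold, with a median log2 fold change of -0.94. Over all gene peaks 33.6% were lower and 39.8% higher. Nanos2, an RNA-binding regulator of stem cell self-renewal, had 0, 1.37, 0, 0 and 0.620 CPM in later germ cells, against 6.51, 12.5, 22, 19 and 9.91 CPM in KIT-negative spermatogonia (log2 fold change -4.99 ± 0.61, edgeR adjusted p = 1.63e-10). Dusp6, a phosphatase induced by and acting on MAP kinases, had 5.18, 6.18, 5.21, 4.48 and 3.72 CPM in later germ cells, against 50.8, 43.9, 40.9, 43.1 and 54.5 CPM in KIT-negative spermatogonia at chr10:99262934-99263550 (log2 fold change -3.21 ± 0.27, edgeR adjusted p = 3.36e-16). Zbtb16, which encodes the stem cell regulator PLZF, had 6.29, 4.12, 17.4, 5.97 and 9.31 CPM in later germ cells, against 50.3, 42.4, 59.1, 45.2 and 48.1 CPM in KIT-negative spermatogonia (log2 fold change -2.57 ± 0.26, edgeR adjusted p = 3.56e-13). All 3 were lower in every later library, and later library 3 was the highest of its group for Zbtb16.

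Also lower were the X-linked Sox3 (-3.11), Sall4 (-2.96), which encodes a zinc finger protein of stem cells, and Ccnd2 (-2.87), a D-type cyclin. The GDNF receptor genes Ret and Gfra1 had log2 fold changes of -1.94 and -1.54, and Etv5, a target of that pathway, averaged 57.6 ± 8.87 CPM in later germ cells and 135 ± 7.42 CPM in KIT-negative spermatogonia (log2 fold change -1.22 ± 0.13, edgeR adjusted p = 6.22e-12). In contrast, Egr3 averaged 44.8 ± 6.04 CPM in later germ cells and 13.9 ± 2.99 CPM in KIT-negative spermatogonia (log2 fold change 1.69 ± 0.22, edgeR adjusted p = 1.37e-09), and Bcl6b (1.40), Taf4b (0.65) and Bmi1 (0.53) were also higher. Id4, used as a stem cell marker, did not pass (log2 fold change 0.14 ± 0.22, edgeR adjusted p = 0.568).

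Of 15 genes of differentiating spermatogonia 9 were lower, 4 higher and 2 not past the threshold, with a median of -0.67. The shares of all gene peaks were 33.6% lower and 39.8% higher. Stra8, the retinoic acid target of meiotic entry, averaged 6.27 ± 1.75 CPM in later germ cells and 21.2 ± 3.69 CPM in KIT-negative spermatogonia (log2 fold change -1.74 ± 0.31, edgeR adjusted p = 2.03e-06). Dmrt1, which governs the choice between mitosis and meiosis, averaged 12.9 ± 2.29 CPM in later germ cells and 37.4 ± 6.76 CPM in KIT-negative spermatogonia (log2 fold change -1.53 ± 0.24, edgeR adjusted p = 8.11e-08). Sohlh1 (-1.30), a helix-loop-helix regulator, and Crabp1 (-1.15), which binds retinoic acid, were lower too, but Crabp1 did not pass with the later libraries named spermatocyte alone (-0.45, edgeR adjusted p = 0.239). Uhrf1, which maintains DNA methylation, and Ccnb1, a mitotic cyclin, were higher by 1.12 and 0.92.

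The surface markers of the sort differed little. Kit had 24.8, 26.8, 15.6, 23.1 and 21.7 CPM in later germ cells, against 39.9, 28.0, 43.4, 27.7 and 26.9 CPM in KIT-negative spermatogonia (log2 fold change -0.55 ± 0.22, edgeR adjusted p = 0.0233). That call was lost by DESeq2 (adjusted p = 0.144) and, in edgeR, without later library 1, 3, 4 or 5 or MCAM-high library 3 (adjusted p = 0.0524 to 0.142). In edgeR it was also lost with no count filter (adjusted p = 0.0690) and with all 13 heterozygous libraries in the fit (0.136). The same held against the MCAM-medium libraries alone (0.318) and with later libraries of either cell type alone, by title or by name (0.0566 to 0.536). Mcam had 25.5, 21.3, 15.6, 11.2 and 23.0 CPM in later germ cells, against 38.2, 25.0, 25.8, 36.0 and 31.2 CPM in KIT-negative spermatogonia (log2 fold change -0.66 ± 0.24, edgeR adjusted p = 0.0108). That call was lost by DESeq2 (adjusted p = 0.0766) and, in edgeR, without later library 3 or 4 (adjusted p = 0.0626 and 0.0822). In edgeR it was also lost with the later libraries titled spermatocyte alone (-0.23, adjusted p = 0.475). Those named spermatocyte (-0.70, adjusted p = 0.0764) or round spermatid (-0.38, adjusted p = 0.204) alone gave no call either. The highest later Kit value lay just under the lowest KIT-negative one, and Mcam values overlapped.

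Most tested markers of somatic testis cells, which a sort can carry over, were lower in later germ cells too, against 33.6% of all gene peaks. Of the 11 of 18 Sertoli markers with a peak 9 were lower and the other 2 did not pass, and the list summed to 91.4 to 109 CPM in later libraries and 234 to 286 CPM in KIT-negative ones. For 2 of 9 Leydig markers with a peak, both lower, the sums were 14.4 to 21.1 CPM in later libraries and 60.9 to 80.4 CPM in KIT-negative ones. Of 12 immune markers 5 had a peak and 2 were tested, both lower, with sums of 13 to 31.4 CPM in later libraries and 36.5 to 48.1 CPM in KIT-negative ones. Of 12 peritubular and endothelial markers 8 had a peak and 6 were lower, with sums of 57.7 to 86.6 CPM in later libraries and 143 to 159 CPM in KIT-negative ones. Several defining markers had no peak at their start or ends: Gata4, Gata1 and Amhr2 of Sertoli cells, Star, Cyp17a1, Hsd3b1 and Insl3 of Leydig cells, Ptprc and Csf1r of immune cells, and Pecam1 and Cdh5 of endothelium. No marker with a peak was at 0 in all libraries of a group. Sox8, a Sertoli marker, averaged 7.51 ± 1.28 CPM in later germ cells and 44.9 ± 8.59 CPM in KIT-negative spermatogonia, and Kdr, an endothelial receptor, 10.4 ± 1.06 CPM in later germ cells and 48.5 ± 5.72 CPM in KIT-negative spermatogonia. Cyp11a1, the first enzyme of steroid synthesis, averaged 10.5 ± 4.06 CPM in later germ cells and 46.8 ± 7.69 CPM in KIT-negative spermatogonia, and Spi1, a myeloid transcription factor, 4.32 ± 3.26 CPM in later germ cells and 19.4 ± 6.20 CPM in KIT-negative spermatogonia. The X-linked Nr0b1 (-2.97), Wt1 (-1.46) and Aard (-1.45) of the Sertoli list, Lhcgr (-1.48), the luteinizing hormone receptor, and Cnn1 (-2.04), Tek (-1.92) and Pdgfrb (-1.47) were lower as well. With the later libraries named spermatocyte alone Lhcgr (-0.76, edgeR adjusted p = 0.107), Cnn1 (-1.44, adjusted p = 0.0544) and Pdgfrb (-0.85, adjusted p = 0.203) did not pass. Pdgfrb also did not pass with those titled round spermatid alone (-0.92, edgeR adjusted p = 0.0924). Cd3e of T cells (-0.97) lost its call by DESeq2 (adjusted p = 0.0706) and, in edgeR, without later library 2, 4 or 5 or MCAM-high library 3 (adjusted p = 0.0563 to 0.150). In edgeR it also lost the call with loess offsets (adjusted p = 0.117) and with all 13 heterozygous libraries in the fit (0.0534). So it did with the later libraries titled spermatocyte (0.333) or named round spermatid (0.412) alone. Fewer somatic cells and less open chromatin per cell cannot be told apart in bulk samples, and the part of such cells in the lower spermatogonial peaks was not tested.

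Cell cycle and signalling lists were split, as gene peaks were in general (39.8% higher and 33.6% lower). In replication, cell cycle and MYC 13 of 23 tested members were higher and 7 lower, with a median of 0.52. Ncl, which encodes nucleolin, had 84.4, 74.2, 82.4, 66.4 and 73.8 CPM in later germ cells, against 279, 274, 245, 251 and 263 CPM in KIT-negative spermatogonia (log2 fold change -1.78 ± 0.12, edgeR adjusted p = 3.09e-20). This was a strong peak in KIT-negative libraries and lower in every later library. Mycn (-1.92) and Cdk6 (-1.64), the kinase of D-type cyclins, were lower as well, while Mcm7 (1.02, peak shared with Ap4m1), Ccnd3 (1.13) and Nme1 (1.42) were higher. The peak of Myc did not pass the count filter.

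Of 18 genes of the GDNF, FGF and MAPK response 6 were higher and 7 lower, near the shares of all gene peaks. Their median was -0.13, which turns to 0.07 under DESeq2 scaling. The receptor gene Fgfr1 averaged 12.2 ± 6.27 CPM in later germ cells and 45.1 ± 8.69 CPM in KIT-negative spermatogonia (log2 fold change -1.88 ± 0.25, edgeR adjusted p = 1.78e-09). The ETS factor gene Etv4 (-1.25) and the feedback inhibitors Spry1 (-1.24) and Spry2 (-1.12) were lower, but Dusp4, another MAP kinase phosphatase, averaged 83.6 ± 6.89 CPM in later germ cells and 22.8 ± 3.03 CPM in KIT-negative spermatogonia (log2 fold change 1.88 ± 0.17, edgeR adjusted p = 5.5e-15). Fosl1, an AP-1 subunit, and Spred1, a feedback inhibitor, were higher by 1.77 and 1.21.

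Telomerase genes moved in both directions, as gene peaks did in general. Terc, the RNA template, had 21.5, 26.1, 14.8, 9.70 and 22.3 CPM in later germ cells, against 204, 791, 680.0, 793 and 219 CPM in KIT-negative spermatogonia at chr3:96414052-96414936 (log2 fold change -4.79 ± 0.25, edgeR adjusted p = 2.01e-24). Every later library was far below every KIT-negative one, and within the KIT-negative group MCAM-high 1 and MCAM-medium 2 stood well below the other 3. The SE draws on variation moderated over all tested peaks and is not the spread of the libraries at this peak. Tert, the catalytic subunit, had 6.29, 6.18, 7.81, 7.46 and 11.2 CPM in later germ cells, against 24.3, 25.0, 24.5, 21.1 and 23.4 CPM in KIT-negative spermatogonia at chr13:73626569-73627516 (log2 fold change -1.61 ± 0.29, edgeR adjusted p = 2.34e-06). The groups did not overlap, but they carry different Tert alleles, and allele and cell stage cannot be told apart at this peak.

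Of the proteins that bind the telomerase RNA, the X-linked Dkc1 averaged 4.72 ± 3.52 CPM in later germ cells and 39.4 ± 4.14 CPM in KIT-negative spermatogonia (log2 fold change -2.95 ± 0.30, edgeR adjusted p = 5.53e-13). Gar1 averaged 83.4 ± 9.79 CPM in later germ cells and 16.5 ± 1.85 CPM in KIT-negative spermatogonia (log2 fold change 2.32 ± 0.18, edgeR adjusted p = 1.75e-17), so members of the same particle had opposite changes. The shelterin genes Terf2 (1.39) and Acd (1.54, peak shared with Pard6a) were higher, as were Majin (1.52) and Terb2 (1.26), which tether telomeres to the nuclear envelope in meiosis. In all 6 of 19 members were higher and 7 lower, near the 39.8% and 33.6% of all gene peaks, with a median of 0.22. The split was 9 to 3 under DESeq2 scaling.

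Chromosome X stood apart from the autosomes. Peaks on X held 0.758, 0.766, 0.523, 0.488 and 0.592% of counts in later libraries 1 to 5, against 2.0, 2.32, 2.42, 2.28 and 2.07% in the KIT-negative libraries. The later share was lower in every library, and later libraries 1 and 2 had the highest values of their group. The means were 0.626 ± 0.130% in later germ cells and 2.22 ± 0.176% in KIT-negative spermatogonia (SD, n = 5 each), a difference of -1.59 percentage points (two-sided exact permutation p = 0.00794, adjusted 0.0106). Peaks on Y held 0.0317 ± 0.0040% of counts in later germ cells and 0.0485 ± 0.0068% in KIT-negative spermatogonia, with the same p. Among libraries outside the comparison, X held 1.86 to 2.19% of counts in 6 TERT-deleted KIT-negative libraries and 1.44 to 1.63% in 3 heterozygous KIT-positive ones.

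Of 795 tested peaks on X 84.3% were lower and 3.77% higher, with a median log2 fold change of -2.21, against 33.2% lower, 38.8% higher and a median of 0.05 on the autosomes. Gene starts or ends, bodies and intergenic peaks on X were lower in 82.7%, 86.0% and 88.2% of cases. Among autosomes chromosome 7 had the largest share of lower peaks, 45.2% with a median of -0.39, and chromosome 18 the largest share of higher ones, 45.7% with a median of 0.39. On Y 10 of 17 tested peaks were lower and 4 higher.

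**Figure D4:**
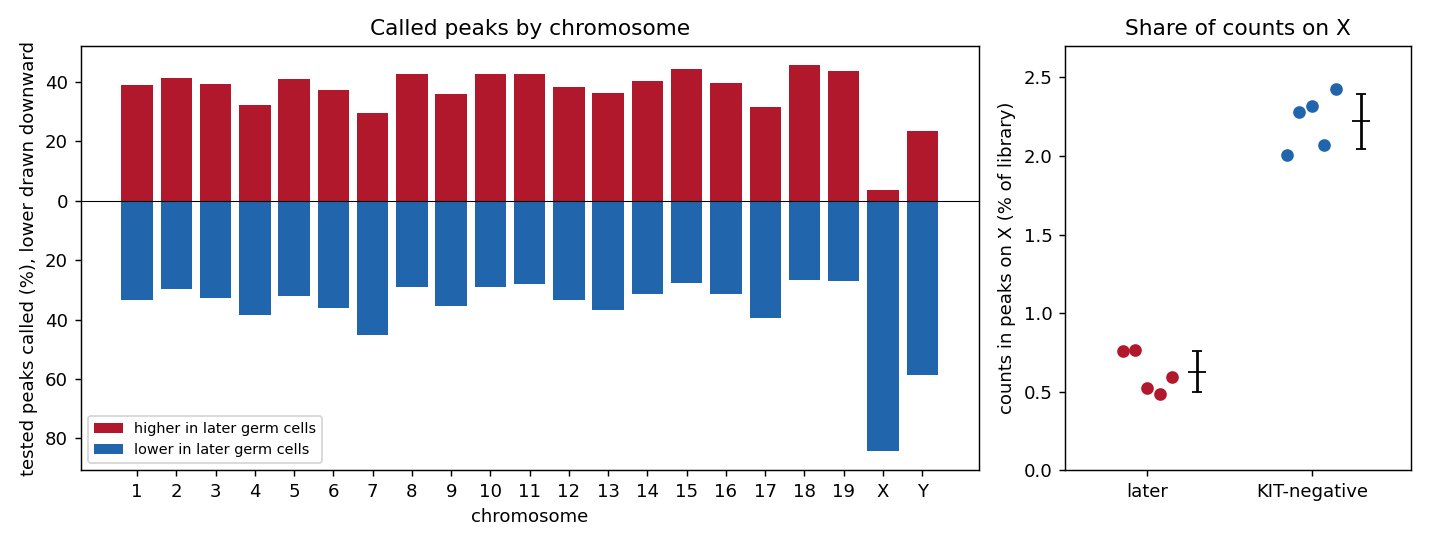
Left, the percent of tested peaks on each chromosome that were higher (red, upward) or lower (blue, downward) in later germ cells; right, the percent of each library's counts on X, with the mean ± SD in black. X has 84.3% of its peaks lower, and the 5 later libraries lie between 0.488 and 0.766%, below all KIT-negative libraries.

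Some peaks on X went the other way. The 30 higher ones, a set chosen after their values were seen, include the start of Tcp11x2 at 13.5 ± 2.99 CPM in later germ cells and 0.411 ± 0.919 CPM in KIT-negative spermatogonia. Sytl5 (4.09) and Tmsb15a (3.53) were higher at their starts. The peak in the body of Akap4, the main protein of the sperm fibrous sheath, averaged 67.0 ± 13 CPM in later germ cells and 8.64 ± 2.93 CPM in KIT-negative spermatogonia (log2 fold change 2.92).

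X-linked genes with an autosomal retrocopy, also picked after the values were known, differed in direction from their copy in the pairs below that passed the threshold. Pgk1, the glycolytic phosphoglycerate kinase, had 10.4, 13.1, 7.81, 5.97 and 9.93 CPM in later germ cells, against 71.6, 70.4, 69.1, 77.6 and 60.9 CPM in KIT-negative spermatogonia (log2 fold change -2.86 ± 0.21, edgeR adjusted p = 4.49e-18). Its retrocopy Pgk2 on chromosome 17 had 41.1, 54.3, 38.2, 31.4 and 45.3 CPM in later germ cells, against 18.2, 21, 20.7, 22.6 and 14.2 CPM in KIT-negative spermatogonia (log2 fold change 1.11 ± 0.21, edgeR adjusted p = 6.17e-06). The X-linked start was lower in every later library, and the start of the copy higher. The X-linked member was lower and its copy higher also for Pdha1 (-3.08) and Pdha2 (1.66), Utp14a (-2.28) and Utp14b (0.52), Cetn2 (-2.25) and Cetn1 (0.66), Rpl10 (-0.79) and Rpl10l (0.62), and Cstf2 (-0.58) and Cstf2t (1.41), all past the threshold, though groups overlapped at Cstf2 and at Cetn1, whose peak is at an end and not a known start. Rbmx (-0.57) and Rbmxl2 (0.15) did not pass, and the Utp14b peak is shared with Acsl3.

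The largest changes at gene starts or ends were then ranked over protein-coding genes, with predicted genes left out. The 10 highest rises all had 0 counts in the KIT-negative libraries and were at least 62.9 to 123-fold higher, taking 3 counts over the group as the floor. Gtsf2, a gametocyte-specific factor, had 36.6, 44.0, 27.8, 38.8 and 52.1 CPM in later germ cells and 0 CPM in every KIT-negative library at chr15:103448352-103448768 (edgeR adjusted p = 1.09e-19). Speer4f2, of a multicopy family whose reads may be split between copies, had 27.4, 37.8, 52.9, 38.8 and 41.0 CPM in later germ cells and 0 CPM in every KIT-negative library. The others were Prr27, Plcd4, Efcab3, Fam71d, Pln, Mroh9, Ccdc192 and Csnka2ip. Pln, which encodes the calcium pump inhibitor phospholamban known from heart muscle, was at least 71.1-fold higher.

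Of the 10 largest falls 9 were on X, and Nanos2 was the exception. Fthl17f, of a ferritin-like multicopy family, had 0.740, 2.06, 1.74, 2.99 and 1.86 CPM in later germ cells, against 66.0, 89.4, 81.7, 77.6 and 75 CPM in KIT-negative spermatogonia at chrX:9062216-9063358 (log2 fold change -5.45 ± 0.28, edgeR adjusted p = 2.34e-24). Hdac6, a cytoplasmic deacetylase, had 4.44, 4.12, 5.21, 0.746 and 2.48 CPM in later germ cells, against 82.5, 88.4, 86.1, 84.8 and 71.5 CPM in KIT-negative spermatogonia (log2 fold change -4.54 ± 0.25, edgeR adjusted p = 2.23e-23). Both were open in all KIT-negative libraries and at or below 5.21 CPM in all later ones. Prrg1, Xlr3b, Chst7, Timp1, Fthl17b, Zfp449 and Enox2 fell by 4.34 to 5.00 on the log2 scale, and reads of Fthl17 and Xlr3 genes may be split between near-identical copies. On autosomes, ranked after the data were seen, the peaks of Zfp996 (-4.23), Fbxo16 (-4.14), Armh4 (-4.08), Tnrc18 (-4.04), Sec14l5 (-4.04) and Mef2b (-4.00), a MADS-box factor gene, followed Nanos2.

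Away from the starts and ends so used the lower bounds of the rises were larger still. A peak 152341 bp from Htr7, at chr19:35805282-35806074, had 59.2, 50.1, 59.0, 97.0 and 63.3 CPM in later germ cells and 0 CPM in every KIT-negative library, at least 203-fold higher. Peaks in the bodies of 4930592A05Rik, 5730522E02Rik and Fbxl17 and 14350 bp from Frg1 also had 0 counts in every KIT-negative library and were at least 133 to 150.5-fold higher. The 5 largest distal falls were all on X. A peak 8270 bp from Gjb1, at chrX:101393899-101394770, had 0 CPM in every later library, against 24.7, 21.5, 22, 24.1 and 41.8 CPM in KIT-negative spermatogonia, and one 632 bp beyond the end of Cox7b, for which only the start was used, was likewise at 0 in the later group; taking 3 counts over the group as the floor these were at least 73.9 and 43.3-fold lower. Those 5249 bp from Taf7l (-6.14), in the body of Dock11 (-5.81) and 56422 bp from Usp9x (-5.75) had 1 to 3 counts in the later group.

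Promoters that opened most differed in sequence from the tested promoters as a whole. Of 11711 protein-coding genes with a known start and a tested peak there, 339 were higher by more than 3 on the log2 scale, a threshold set after the values were seen. In the 300 bases from 250 before to 50 after the start, these promoters had a median of 2 CpG and 48.7% GC, against 21 CpG and 61.3% GC over all 11711. Fewer than 5 CpG were present in 82.3% of the 339 and 5.72% of all. Of the 670 tested promoters with fewer than 5 CpG, 279 were among the 339. Promoters with few counts in both groups did not pass the count filter and are left out here. Their part in these shares was not tested. The 181 promoters lower by more than 3 had a median of 13 CpG.

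The run TGANNTCA, a cyclic AMP response element with any 2 central bases and the same on both strands, was present in 152 of the 339 promoters (44.8%), against 10.5% of all and 9.39% of the 181. Its letters read backward, ACTNNAGT, were in 5.6% and 4.76%. Among promoters with fewer than 5 CpG the run was in 45.2% of 279 that rose by more than 3 and in 20.5% of the 391 others. In the Prm1, Tnp1, Gapdhs, Gtsf2 and Pln sequences above the run begins 39 to 94 bases before the start. The Tnp1 run and the first Gapdhs run, both at 94, lie outside the window counted next. In the 339, 95 of 185 runs (51.4%) began 80 to 30 bases before the start, against 286 of 1148 (24.9%) in the other promoters.

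**Figure D5:**
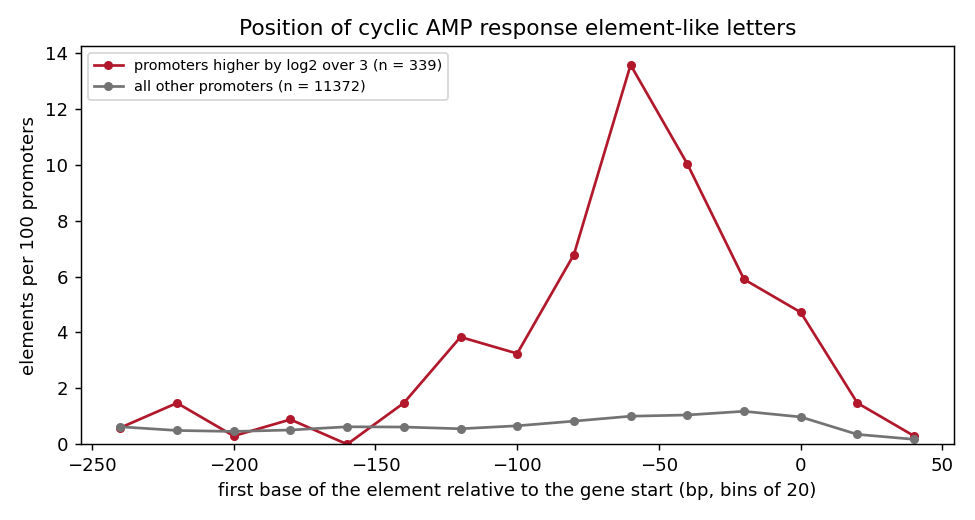
Runs of the cyclic AMP response element-like letters per 100 promoters, in bins of 20 bases by distance of their first base from the gene start, for 339 promoters higher by more than 3 on the log2 scale in later germ cells (red) and the 11372 others (grey). In the 339 promoters 51.4% of runs begin 80 to 30 bases before the start, against 24.9% in the others.

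Other letters searched on both strands differed too. The SOX core ACAATG was in 23.9% of the 339 and 7.02% of all promoters, against 9.44% and 4.70% for its letters read backward. The RFX-type run GTTGCC was in 23.9% of the 339 and 13.5% of all, against 2.95% and 7.16% for its letters read backward. Those backward letters, CCGTTG, hold a CpG and GTTGCC does not. They are therefore no control for it in promoters poor in CpG. The GC box GGGCGG, bound by SP and KLF factors, was in 7.67% of the 339 and 65.6% of all, much as its letters read backward (6.78% and 64.6%), and the ETS core CCGGAA in 4.72% and 26.8%. CCGGAA holds a CpG, and its letters read backward, AAGGCC, which hold none, were in 18.9% and 17.3%. The MYB core AACNGNC was in 37.8% of the 339 and 33.1% of all. In the 181 promoters lower by more than 3, the NF-Y box CCAAT was in 61.9%, against 39.2% of all (24.9% and 21.8% for its letters read backward), and the POU octamer ATTTGCAT in 5.52%, against 1.37%. Among promoters with fewer than 5 CpG the differences were smaller: ACAATG was in 26.5% of the 279 that rose by more than 3 and 15.1% of the 391 others, GTTGCC in 23.7% and 14.6%, GGGCGG in 4.66% and 14.6%, and CCGGAA in 3.23% and 5.12%. A match of letters is a description and not a bound site, and CpG content differs between these sets.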

How the data were processed

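The authors deposited raw read counts per peak for 96049 peaks and 22 ATAC-seq libraries; counts of the 10 libraries compared here were used. Bowtie2, FastQC, Picard and SAMtools and the builds GRCm38, mm10 and hg19 are named in the submitters' processing notes without versions or roles. The peak caller, the counter, any Tn5 offset or duplicate filter, and whether peak starts count from 0 or 1 are not given in the sources used here. Peaks lay where GRCm38 places the genes, and coordinates are printed as deposited.

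Peaks passing filterByExpr were tested with edgeR 4.0.16 (TMM scaling, quasi-likelihood test, Benjamini-Hochberg adjustment over 47354 peaks, threshold 0.05) in R 4.3.3, with the later libraries against both KIT-negative kinds and no covariate. The SE is the absolute log2 fold change over the root of F. Shares of counts were compared by exact permutation over 5 and 5 libraries. The scripts were tested on simulated data. Peaks were assigned within 1000 bp of a gene start (either end where the strand is not given), or to a body, using RefSeq genes of GRCm38.p6; exon, intron and UTR were not assigned. A start was known for 27025 of 34615 genes.

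Members and gene lists were chosen with earlier results of these data known. Named by rule were the 10 higher and 10 lower gene peaks with the largest change among those past the threshold, with non-overlapping groups and at least 10 CPM in the higher group (protein-coding, predicted genes left out), up to 4 past-threshold members per list with the largest change, for other cell types also the marker with most CPM, 5 distal peaks each way, and Tert, Terc, Kit and Mcam. Other genes named were chosen after their values were seen. Alternatives were DESeq2 1.42.0, limma 3.58.1 with a library-number block, other scalings and filters, subsets of libraries and each library left out.

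Same-numbered KIT-negative libraries correlated at 0.907 (Ctrl1) and 0.886 (Ctrl2), within the range of the group, and the later libraries share a number with none of them. The highest correlations of that group crossed number and MCAM gate: MCAM-high 1 with MCAM-medium 2 (0.923) and MCAM-medium 1 with MCAM-high 2 (0.922). MCAM-high 1 and MCAM-medium 2 stood apart at Terc and also at Sox3 (77.3 and 77.9 CPM, the others 30.8 to 40.4). The origin of this split was not tested.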

Additional observations from a re-analysis of the deposited data

Results flagged for a closer look

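Values were screened in 192 groups of 5 libraries over the named peaks and shares. Groups at 0 in all 5 libraries could not be flagged and some flags rest on few counts, so no chance rate is given. In 12 groups (6.25%) 1 library stood away from the other 4 by Dixon's criterion. In later germ cells these were Oaz3 in library 4 (14.2 CPM, the others 25.4 to 29.5), Gar1 in library 2 (65.9, the others 86.9 to 88.5), Tek in library 4 (9.70, the others 3.43 to 5.18), the peak far from Htr7 in library 4 (97.0, the others 50.1 to 63.3), and the distal peak by Taf7l in library 5 (0.620, the others 0).

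In KIT-negative spermatogonia MCAM-medium library 2 was high at Dmc1 (29.7, the others 17.0 to 19.5), at the distal peak by Gjb1 (41.8, the others 21.5 to 24.7) and at the one by Taf7l (24.8, the others 10.4 to 12.3). MCAM-medium library 1 held the reads at Odf1 (2.05, the others 0). MCAM-high library 3 was high at Fhl5 (2.51, the others 0 to 0.434) and Catsper1 (1.26, the others 0), and MCAM-high library 1 at Zfp449 (36.0, the others 22.6 to 26.2). None of these values brought a group into the range of the other at its peak.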

How the results depend on the processing

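Counts of higher and lower peaks stayed within 1.5 times of 18090 and 16136 in each alternative run except that 30379 were higher with no count filter (96047 peaks tested), and that 11895 were higher and 7982 lower when the change had to exceed 1 on the log2 scale; the second asks more of each peak. DESeq2 gave 19747 higher and 13551 lower, and loess offsets 16623 and 15209. Similar totals can hold different peaks. With the later libraries named spermatocyte alone 66413 peaks were tested, and 63.0% of the main lower and 89.2% of the main higher peaks were called again. For those titled spermatocyte alone 69499 were tested, and these shares were 74.1% and 95.5%. With 1 library left out, 49342 to 54154 peaks were tested. Leaving out 1 library at a time gave 17653 to 21243 higher and 15753 to 17676 lower, and differences in share of -1.65 to -1.54 for X, -0.0188 to -0.0147 for Y, -1.82 to -0.583 for gene starts or ends and -2.42 to -2.25 for the top 1% of peaks. With the library number as a replicate block in limma, 18513 were higher and 16516 lower. Of these, 18021 and 15884 were also called in the main edgeR fit, which has no block, so method and block changed together. The estimated correlation of libraries that share a number was -0.027. The number is a label, the pairing is not stated, and the later libraries all carry 1 number of their own. For 92 named peaks, none of 2186 values under these alternatives changed sign past the threshold and 36 lost the call, at Kit, Mcam, Cd3e, Crabp1, Hsf2bp, Fhl5, Lhcgr, Cnn1 and Pdgfrb. At the library depths here a peak with 0 counts may lie anywhere up to 1.11 to 2.6 CPM in a later library and 1.30 to 2.12 CPM in a KIT-negative one.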
